A study of Tetranychus urticae with 8 samples.

Results

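A total of 175 genes of the spider mite Tetranychus urticae, of 17654 gene IDs measured, stood at a middle level in adult females and far lower in adult males. They were chosen on the same libraries in which they are described. Their mean in females was from 50 to under 200 CPM, that is read counts divided by the sum of reads over genes and multiplied by 1000000. It was at least 16 times the mean in males, the 4 male libraries together held more than 3 reads, and the ID ended in 0. The contrast between the sexes is therefore a property of the choice, and its values are given as a description without a test.

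The series compared messenger RNA of whole adult females with that of whole adult males of the strain London, raised on detached bean leaves. Each of the 4 male libraries was a pool of about 800 animals aged 1 to 2 days, and each of the 4 female libraries a pool of about 200 animals aged 3 days. Sex, age and pool size changed together and cannot be told apart. The labels call the libraries biological replicates and do not say whether the pools came from separate cultures. The sums of reads over genes ranged from 12082575 to 21414612, so that 1 read corresponded to 0.0467 to 0.0828 CPM.

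Spider mites are haplodiploid: fertilized eggs give females and unfertilized eggs give males. Adult females are the larger sex and lay eggs through most of adult life, so that a whole female holds ovary, growing oocytes and yolk-forming tissue beside the organs that both sexes have. Genes used in the ovary or loaded into eggs are a well-known source of female-biased RNA in whole arthropods. No names stand beside the IDs in the files, and 0 of the 175 IDs occurred in the RefSeq gene table used here, which is of the assembly NJAU_TeUrti_SD_1.0. No member is therefore described by function, no marker of ovary, testis or gut could be looked up, and no sequence is shown. In whole bodies, fewer cells of a kind and less RNA per cell cannot be told apart.

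The choice can be followed step by step. Of the 16927 IDs ending in 0, 3331 had a female mean from 50 to under 200 CPM. Of these, 178 reached 16 times the male mean, and 3 of the 178 had at most 3 male reads, which left the 175. They were 5.25% of the IDs at that female level. Another 3 IDs that do not end in 0 met every other condition. The same rule with the sexes exchanged gave 68 male-biased genes, or 2.47% of the 2753 IDs at 50 to under 200 CPM in males. With each library left out in turn that count was 61 to 68, and the count of female-biased genes 170 to 181.

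**Figure D1:**
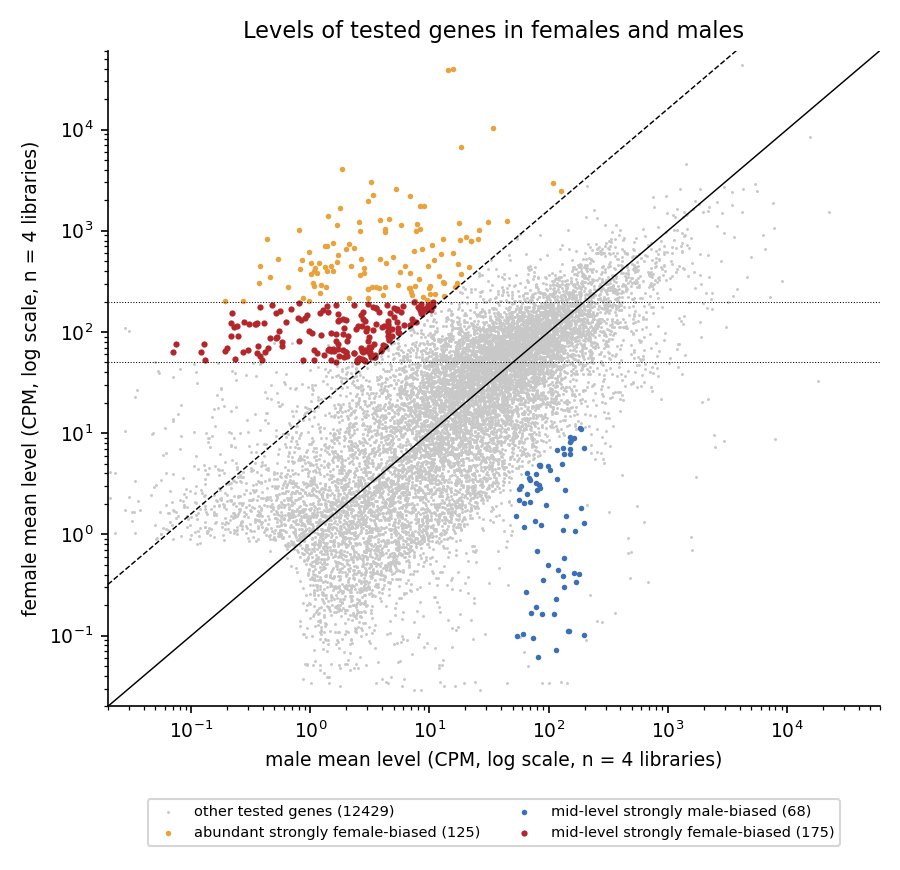
Mean level in the 4 female libraries (vertical) against mean level in the 4 male libraries (horizontal), in CPM on log scales, for tested genes with a read in both sexes. The dashed line marks 16 times the male mean, the solid line equality and the dotted lines 50 and 200 CPM; the 175 chosen genes fill the band from 0.0700 to 10.7 CPM in males.

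The bounds cut through a continuous range of values. At the 50 CPM bound, tetur24g01320 had 52.3, 51.4, 49.0 and 51.2 CPM in female replicates 1 to 4 and was included. Just outside, tetur10g05390 had 52.2, 47.0, 46.1 and 53.1 CPM. These female ranges overlapped. At the 200 CPM bound, tetur13g00290 averaged 199 ± 10.9 CPM (SD, n = 4) and was included, whereas tetur10g01960 averaged 201 ± 23.7 CPM and was not. At the fold bound, tetur23g02090 stood at 16.05 times the male mean and tetur13g01570, left out, at 15.97 times. The bound on male reads separated tetur11g01000, with 4 male reads in all, from tetur32g01720, with 3.

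The 175 genes were measured with many reads in females and few in males. A single gene had 622 to 3725 reads in a single female library (median 1429). Over the 4 male libraries together it had 4 to 688 reads, with a median of 145. Fewer than 20 male reads stood behind 18 of the genes, and 10 had at least 1 male library without a read. The female mean had a median of 102 CPM, with 86 genes under 100 CPM and 89 at 100 CPM or more. The male mean had a median of 2.34 CPM and quartiles of 0.853 and 4.09. It was under 1 CPM for 48 genes and 5 CPM or more for 30. CPM values are not corrected for transcript length, so levels of different genes are not ranked against each other.

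By edgeR's quasi-likelihood test, with an adjusted p under 0.05 and a 2-fold minimum as the thresholds, all 175 genes were called higher in females, against 26.9% of all 12885 tested genes. With a fitted fold of 16 as the minimum, 174 were called, against 4.3% of all tested genes. For all 175 the 4 female libraries lay above the 4 male libraries, which held for 42.2% of the tested genes. These counts follow from the choice. The margin in single libraries also follows in large part from it, and its share over all tested genes was not computed. In 142 of the 175 genes (81.1%) the lowest female library exceeded the highest male library at least 16-fold. In all of them it did so at least 8-fold, with a smallest value of 10.5.

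The genes were chosen again without 1 library, and their ratio was then read from that library alone against the mean of the other sex. That mean entered the choice, and so did the other libraries of the same sex. High shares therefore follow in large part from the choice and are given as a description. Over all 12885 tested genes, 4.38% had a female mean at least 16 times the male mean. Without one of the female libraries, 172 to 181 genes were chosen, and 95.6% to 99.4% of them stood at 16-fold or more in the library left out. Without one of the male libraries, 170 to 178 were chosen, and 89.9% to 95.4% did so. These include 3, 8 and 1 genes without a read in male replicates 2, 3 and 4, which have no finite ratio there and were counted as 16-fold or more. Every one of the chosen genes was at 8-fold or more in the library left out, in each of the 8 cases. The median ratio there was 38.0 to 44.4, beside 39.2 to 43.0 in the libraries used for the choice. The lowest share and the lowest median both came with male replicate 4 left out.

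The size of the difference ranged widely among the 175 genes. The ratio of female to male mean had a median of 42.2, quartiles of 22.1 and 133, and a highest value of 1044. In 75 genes (42.9%) it was 16 to under 32, in 39 it was 32 to under 64, and in 15 it was 64 to under 128. A further 23 genes lay at 128 to under 256 and another 23 at 256 or more. The ratio differed little with the female level, with a median of 39.9 in genes under 100 CPM and 44.3 in those at 100 CPM or more. Among the 125 abundant strongly female-biased genes, chosen in the same way at 200 CPM or more in females, the median ratio was 148, and 49 (39.2%) were at 256 or more. The 68 male-biased genes of the exchanged rule had a median of 42.1, and 19 of them (27.9%) were at 256 or more. These shares describe the sets and were not compared by a test. The bound of more than 3 male reads limits the highest ratios, and it allows larger ones at 200 CPM or more in females. Among the 3 mid-level genes that this bound left out, the highest ratio was 3935.

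**Figure D2:**
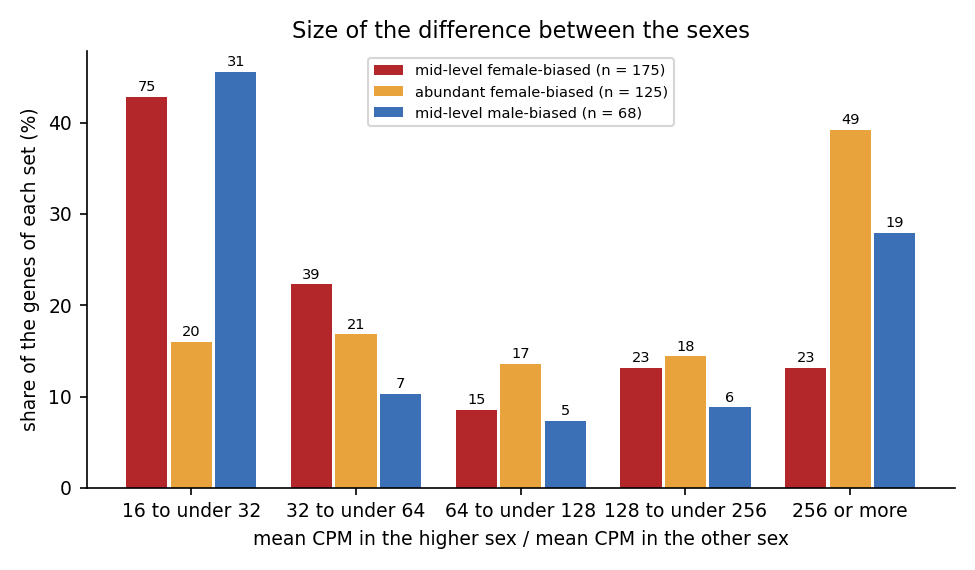
Share of the genes of each set, in percent, by the ratio of the mean CPM in the higher sex to that in the other sex; the number above each bar is the count of genes. In the mid-level female-biased set 75 of 175 genes fall in the class of 16 to under 32, and in the abundant set 49 of 125 fall in the class of 256 or more.

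The genes nearest the median ratio show what is typical of the set. The gene tetur16g00330 had 187, 186, 180 and 188 CPM in female replicates 1 to 4 and 4.23, 4.62, 3.81 and 4.88 CPM in male replicates 1 to 4. The gene tetur27g00310 had 151, 157, 166 and 153 CPM in females and 3.15, 3.50, 4.06 and 4.23 in males. In both, every library lay close to the others of its sex, and the sexes were far apart. The gene tetur05g01460 was alike in its ratio of 42.5, with 112, 111, 125 and 110 CPM in females and 2.29, 2.99, 2.48 and 3.00 in males. Its female replicate 3 stood above the other females.

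At the low end of the ratio, male expression was plain in every library. The gene tetur23g02090 had 164, 167, 167 and 162 CPM in females and 10.5, 10.1, 11.01 and 9.51 in males, from 133 to 216 reads per male library. Its coefficient of variation (the SD as a percentage of the mean) among male libraries was 6.23%, below the 8.05% that counting error alone would give at these depths. The gene tetur06g04820 had 62.9, 58.5, 48.2 and 56.9 CPM in females and 3.44, 3.13, 3.72 and 3.58 in males. Here the male libraries were closer to one another than the female libraries were. The male coefficient of variation was 7.34%, below the 13.9% from counting error alone, so this closeness is no measure of steadiness in males. The female coefficient was 10.9%, against 3.53% from counting error.

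At the high end, male reads were close to the limit of detection. The gene tetur26g00570 had 80.0, 75.5, 86.1 and 65.8 CPM in females, from 930 to 1396 reads per library, and 1, 3, 1 and 0 reads in the male libraries. The ratio of its pooled reads was 966 (95% exact counting interval 413 to 2975). The gene tetur11g01000 had 64.3, 62.0, 64.1 and 62.1 CPM in females and 3, 0, 0 and 1 reads in males, a pooled ratio of 992 (interval 387 to 3644). The intervals overlap almost wholly, so no order between the pair follows. Intervals of this kind cover counting error only.

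**Figure D3:**
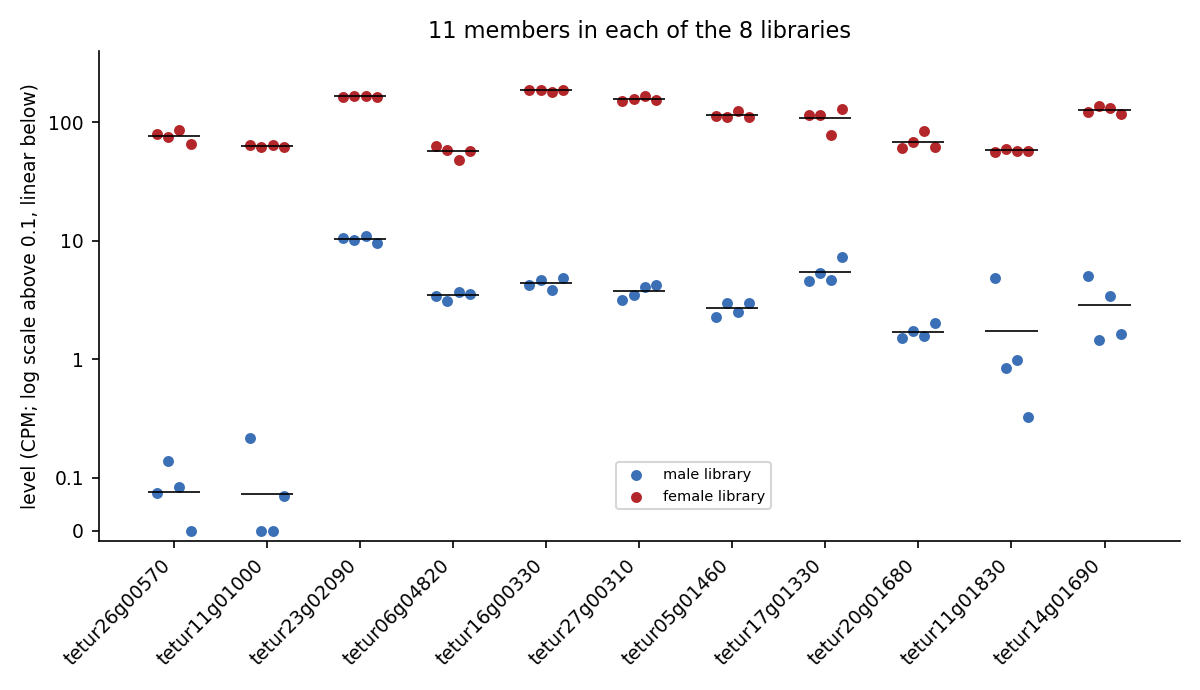
Level in CPM of 11 of the 175 genes in each of the 4 male (blue) and 4 female (red) libraries, replicates 1 to 4 from left to right, with the mean of each sex as a line; the axis is logarithmic above 0.1 CPM and linear below. Red and blue points do not overlap for any of them, and tetur11g01830 runs from 0.326 to 4.80 CPM among males.

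Among female libraries the spread of the 175 genes was near that of other genes at the same level. Their median coefficient of variation was 4.94%, of which counting error alone would give 2.63%. The other 3156 IDs at 50 to under 200 CPM in females had a median of 4.78% with 2.85% from counting. A coefficient of 10% or more was found in 10 of the 175 genes (5.71%) and in 185 of the 3156 (5.86%). The largest belonged to tetur17g01330, at 20.4%, with 115, 114, 77.6 and 130 CPM in females. It came from a low value in female replicate 3. The next was tetur20g01680, at 16.4%, with 60.1, 67.7, 84.4 and 61.3 CPM, where female replicate 3 was the highest. The sum of all 175 genes was 1.89% ± 0.02 of the reads of female libraries and 0.0508% ± 0.0023 of those of male libraries (SD, n = 4 each).

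The 175 genes did not all behave alike across the male libraries. Their summed level was 529, 488, 488 and 528 CPM in male replicates 1 to 4, a narrow range. The 75 genes at 16 to under 32 made up most of it, with 375, 370, 361 and 391 CPM. The 23 genes at 256-fold or more had 11.3, 2.80, 4.22 and 6.71 CPM instead, from 158, 60, 51 and 103 reads. The gap between male replicate 1 and the next male library was 0.542 of the range of the 4, short of what Dixon's criterion needs to set a library apart. Over all 175 genes, every pair of male libraries differed by more than counting error, and so did every pair of female libraries. The chi-square per degree of freedom was 1.56 to 2.82 among males and 3.07 to 8.54 among females, where each gene had more reads. In females the 23 genes at 256-fold or more summed to 2565, 2554, 2576 and 2561 CPM, and this sum hardly varied.

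In male replicates 1 and 2 the classes between lay in between. At 128 to under 256 the male sums were 18.3, 11.1, 13.2 and 13.3 CPM, at 64 to under 128 they were 23.4, 18.6, 21.3 and 23.9, and at 32 to under 64 they were 101, 85.7, 88.5 and 93.8. Relative to the male mean of its class, male replicate 1 stood at 1.00, 1.09, 1.07, 1.31 and 1.81 from the lowest class to the highest. Male replicate 2 stood at 0.988, 0.931, 0.855, 0.793 and 0.447.

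**Figure D4:**
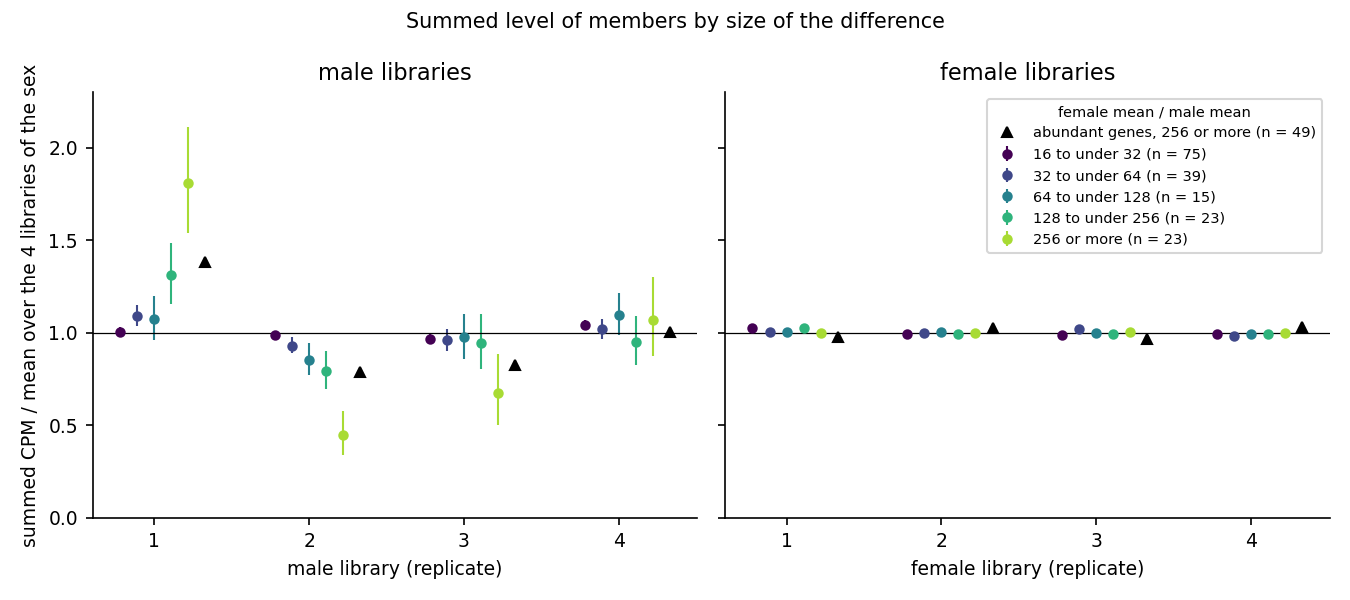
Summed CPM of the genes of each class of female over male mean, divided by the mean over the 4 libraries of the sex, for male libraries (left) and female libraries (right); bars are 95% exact Poisson counting intervals, and triangles are the 49 abundant genes at 256 or more. The class of 256 or more stands at 1.81 in male replicate 1 and 0.447 in male replicate 2, and all classes lie near 1 in the female libraries.

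The high sum in male replicate 1 did not rest on a few of the 23 genes. Male replicate 1 had the highest level of the 4 for 17 of them, and male replicate 2 was above the gene's own male mean for 1. In the class of 16 to under 32, male replicate 1 was the highest for 25 of 75. The gene with the most male reads gave 8.60% of the 372 male reads of the 23 genes. Without the 5 genes with the most reads the sums were 6.88, 1.73, 2.57 and 4.62 CPM, in the same order. Without male replicate 1 the male mean of the class fell from 6.26 to 4.58 CPM, and without male replicate 2 it was 7.42.

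The abundant female-biased genes moved with this class among the male libraries. The 49 of them at 256-fold or more had 221, 126, 131 and 160 CPM in male replicates 1 to 4, the same order as the 23 mid-level genes. The 41 abundant genes at 16 to under 64 had 818, 746, 776 and 802 CPM, again in this order but over a narrower relative range. Relative to their own male mean, male replicates 1 and 2 stood at 1.38 and 0.788 for the 49 genes. For the 41 genes they stood at 1.04 and 0.950. As a share of their female sum, the 23 mid-level genes stood at 0.442%, 0.109%, 0.165% and 0.262% in male replicates 1 to 4, and the 49 abundant genes at 0.162%, 0.0921%, 0.0963% and 0.117%. Whether RNA of females entered the male pools, and what part it has in these values, was not tested.

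Single genes also varied among male libraries at higher read numbers. Of the 175 genes, 111 had at least 100 male reads, and their median coefficient of variation among males was 14.6%, against 13.9% from counting error. Beyond counting error it was 7.76%. For the 1033 other IDs ending in 0 with 100 to 688 male reads and means within 2-fold between the sexes it was 6.52%. Their median coefficient was 13.6%, with 11.8% from counting error. The 1033 and the 111 are thus not matched for counting error, and the difference was not tested. The most variable of the 111 was tetur11g01830, with 4.80, 0.841, 0.993 and 0.326 CPM in male replicates 1 to 4, or 67, 18, 12 and 5 reads. In females it had 56.0, 59.9, 57.2 and 57.5 CPM. The ratio of 33.1 between the means of this gene was 80.1 with male replicate 1 left out and 26.1 to 29.0 with one of the others left out. The next was tetur14g01690, with 5.02, 1.45, 3.39 and 1.63 CPM in males and 122, 137, 132 and 118 in females. Both were highest in male replicate 1.

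The position of the genes in the ID series was not used by the rule, apart from the final 0. In this ID scheme the number after "tetur" names a scaffold of the genome assembly, and the digits after "g" run along it. The 175 genes fell on 38 of the 64 scaffold numbers that hold any ID at 50 to under 200 CPM in females. The 4 scaffold numbers with the most, 05, 02, 03 and 01, held 14, 12, 11 and 10 of them. This was 26.9% of the 175, beside 27.1% of the IDs at that female level. There were 10 pairs whose IDs adjoin each other and no longer run, so that 20 genes stood in pairs.

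Genes of a pair did not need to share their male level. In the pair with the highest summed female level, tetur01g11310 had 130, 124, 119 and 126 CPM in females and 6, 1, 6 and 2 reads in males. Its neighbour tetur01g11320 had 195, 185, 193 and 178 CPM in females and 47, 58, 36 and 48 reads in males. The ratios were 452 and 61.7. In 2 of the 10 pairs both genes were at 256-fold or more, tetur12g03320 with tetur12g03330 and tetur18g01970 with tetur18g01980. These pairs were picked out after their values were seen. Whether paired genes are similar copies that share reads could not be examined without their sequences.

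The values of IDs next to the 175 genes were not used by the rule. Leaving out the 175 themselves, 326 IDs ending in 0 adjoined one of them on the same scaffold number, and 281 of these were tested. Of the 281, 90 were called higher in females (32.03%) and 66 higher in males (23.5%), against 26.9% and 30.5% of all tested genes. With the 281 IDs treated as independent draws, the first share has a 95% Wilson interval of 26.8% to 37.7%. A female mean at least 16 times the male mean was found in 25 of the 281 (8.90%), beside 564 of all 12885 tested genes (4.38%), and 9 of the 281 were among the 125 abundant female-biased genes. The median fitted log2 fold change of the 281 was 0.31, against -0.05 over all tested genes. At any fold, 51.6% of the 281 were called higher in females, with a Wilson interval of 45.8% to 57.4%, against 43.7% of all tested genes. With up to 3 IDs on each side the shares were 30.4% (interval 27.3% to 33.7%) and 25.7% of 795. With 1 ID on each side, beside the other IDs at 50 to under 200 CPM in females, they were 25.4% and 33.6% of 3359. Beside the 125 abundant female-biased genes they were 36.2% and 24.5% of 188. Beside the 68 male-biased genes of the exchanged rule they were 23.9% and 43.1% of 109. In each case the genes of the set itself were left out. The 3156 other IDs at 50 to under 200 CPM in females were therefore left out of the 3359 but not of the 281. Their median ratio of female to male mean was 1.42, so the shares of the 3359 and of the 281 are not like for like. Neighbouring genes are not independent of one another, so the intervals are no test. The differences between these shares were not tested.

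**Figure D5:**
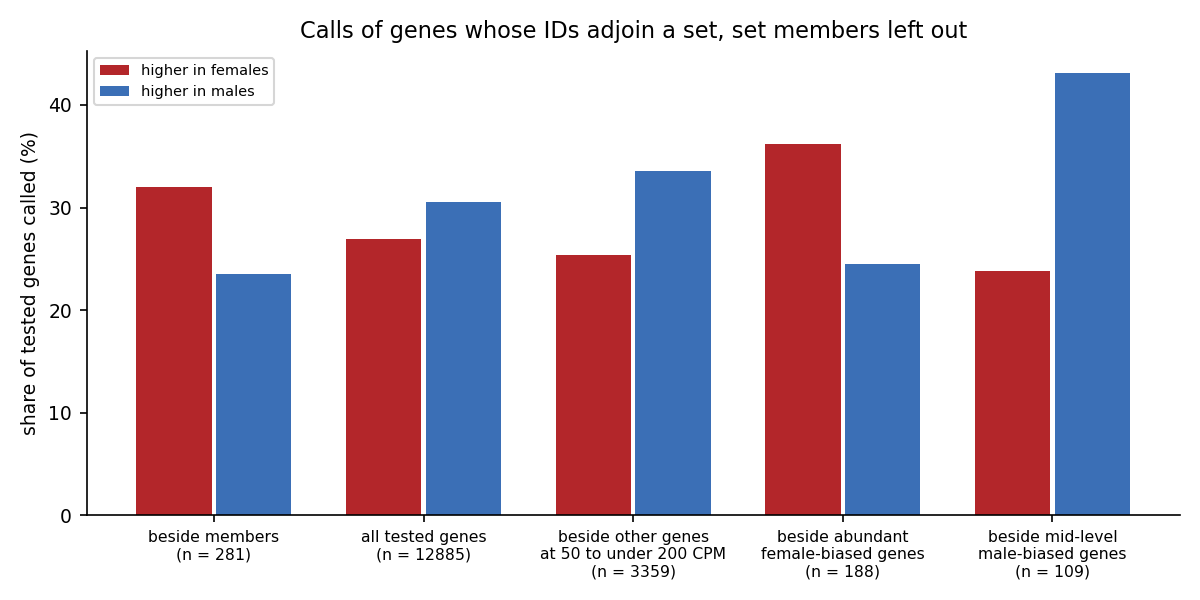
Share of tested genes, in percent, called higher in females (red) or higher in males (blue) at an adjusted p below 0.05 and a fold of at least 2 among IDs that directly adjoin a set, with the genes of that set left out. Beside the 175 genes (members) the shares are 32.03% and 23.5%, and among all tested genes 26.9% and 30.5%.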

How the data were processed

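The deposited file gives a raw read count, in whole numbers, for each gene ID in 8 libraries; the values are not normalized, per the file headers and column sums. Libraries were strand-specific with oligo dT selection, per the labels' protocols. The submitters' processing notes name STAR 2.4.1d and HTSeq 0.6.1. Not given in the sources used here were genome build, annotation, strand setting and treatment of multiply matching reads. Reads of overlapping or near-identical genes could therefore be lost or shared. Columns were matched by the names in the sample descriptions, and 0 were left unused.

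CPM was computed as count over column sum times 1000000. Members and lists were chosen with earlier results of these data known, and the classes of ratio, their male sums and the pairs were examined after values were seen. Calls came from edgeR 4.0.16 (R 4.3.3; quasi-likelihood test, TMM scaling, filterByExpr, sex as the only term, Benjamini-Hochberg over all 12885 tested genes); all 175 members passed the filter. On simulated counts, of which 12713 genes were fitted, that step recovered 50 of 50 genes changed 16-fold and 36 of 50 changed 1.5-fold. Recovery meant an adjusted p under 0.05 in the right direction, without the 2-fold minimum used for the calls. By the same adjusted p, 6 unchanged genes were called. Alternatives were other scalings, no filter, DESeq2 1.42.0, the replicate block, other bounds of the rule, and leaving out each library. Over the members, same-sex libraries differed by more than sampling noise in every pair (chi-square per degree of freedom 1.56 to 2.82 among males, 3.07 to 8.54 among females).

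Genes were named by a rule on rank: the highest and lowest ratios, those nearest each bound and, with at least 50 male reads, the median ratio, the largest coefficient of variation among female libraries and, for genes with at least 100 male reads, among male libraries, and the longest run of adjacent IDs. As 10 runs were equally long, the one with the highest summed female level was taken. Lists of gene names prepared as search patterns could not be filled.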

Additional observations from a re-analysis of the deposited data

Results flagged for a closer look

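Over the named genes and the summed levels, 62 groups of 4 libraries were examined for a library whose gap to the nearest other took up nearly all of the group's range (Dixon's 95% critical value). For independent groups not picked by their spread, chance gives about 1 in 20, or 3.1 groups, and 3 were found. Some of these groups overlap, and tetur11g01830 was named for its spread among male libraries, so that rate is only a rough guide. Female replicate 3 stood above the other females for tetur05g01460, with a gap of 0.859 of the range (125 against 110 to 112 CPM). Male replicate 1 stood above the other males for tetur11g01830, with a gap of 0.851 (4.80 against 0.326 to 0.993 CPM). For the 23 genes at 128 to under 256, female replicate 1 stood above the other females, with a gap of 0.953 (2441 against 2360 to 2364 CPM).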

How the results depend on the processing

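The count of members called higher in females was 175 under other scalings, no filter, DESeq2 and every left-out library, and 174 when a fitted fold of 16 was required. This steadiness follows from the choice at 16-fold or more. The replicate numbers did not pair the libraries (correlations of deviations -0.09 to 0.035), and with the replicate block the count was also 175. The rule gave 295 genes at 8 times and 100 at 32 times the male mean. Its other alternatives gave 157 to 181. Leaving out each library gave 170 to 181 members, 31.7% to 33.3% of neighbouring IDs called higher in females, a median ratio of 41.1 to 42.5, shares of reads of 1.88% to 1.89% in females and 0.0501% to 0.0515% in males, and a median female coefficient of variation of 4.43% to 5.25%. Less its counting part, that coefficient was 4.13%. At any fold, 51.6% of neighbouring IDs were higher in females, against 43.7% of all tested genes. Depth limits the highest ratios, since 3 reads are 0.140 to 0.248 CPM in a male library.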
